A study of Sus scrofa with 14 samples.

Results

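KIT-positive luminal nuclei of the sow mammary gland were selected on their own counts of unique molecular identifiers (UMIs, each marking 1 RNA molecule). A nucleus was taken where at least 300 genes were detected, where at least 1 UMI of KIT was present together with at least 1 UMI of EPCAM or ALDH1A3, where KIT, ALDH1A3 and EPCAM together gave at least 3 UMIs, and where ESR1, TP63, COL1A1, PTPRB, CD163 and CD3E had none. Of 127926 nuclei with at least 300 genes in 10 glands, 10819 were chosen by these counts (8.46%). Glands were taken from 10 multiparous sows, 2 at each of 5 stages, namely gestation day 90 (G90), lactation day 0 (L0) and day 20 (L20), and day 2 (PI2) and day 7 (PI7) of natural involution. All sows were in their second breeding cycle, and their tissue was snap-frozen before single-nucleus RNA sequencing with the GEXSCOPE kit, with 1 library for each sow.

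KIT is the receptor tyrosine kinase for the ligand KITLG (stem cell factor), and in the mammary epithelium of other species it marks luminal progenitors, the cells from which the milk-producing alveolar cells arise. ALDH1A3 makes retinoic acid from retinaldehyde and is used as a second marker of the same cells, while EPCAM is an adhesion protein of epithelium. The other luminal class, the hormone-sensing cells, carries the receptors for oestrogen (ESR1), progesterone (PGR) and prolactin (PRLR) and signals to its neighbours through paracrine factors such as TNFSF11 (RANKL). In Sscrofa11.1, RefSeq places KIT on chromosome 8 (41402334 to 41492306), ALDH1A3 on chromosome 1 (139451080 to 139491514), EPCAM on chromosome 3 (93169800 to 93185221) and KITLG on chromosome 5 (94016992 to 94110219), and counts refer to whole genes without a split into exons and introns.

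The 10 glands gave 9400 to 18694 nuclei and 18962138 to 53165191 UMIs each. The selected nuclei held a median of 2833 UMIs and 1535 genes, against 1857 UMIs over all nuclei, and their UMIs summed to between 457981 and 6320081 per gland. Among them, 671 carried a barcode sequence that also occurred in another gland. Libraries did not always group by stage. Over 7809 genes, the summed profiles of the selected nuclei had a Spearman's rho of 0.943 between the L0 glands, 0.858 between the PI7 glands, 0.826 between the G90 glands, 0.709 between the L20 glands and 0.611 between the PI2 glands. PI2 replicate 1 was closest to PI7 replicate 2 (0.916), L20 replicate 2 to PI7 replicate 1 (0.887), and L20 replicate 1 to PI2 replicate 2 (0.833). These correlations are across genes, which are not independent replicates, and describe the libraries only.

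**Figure D1:**
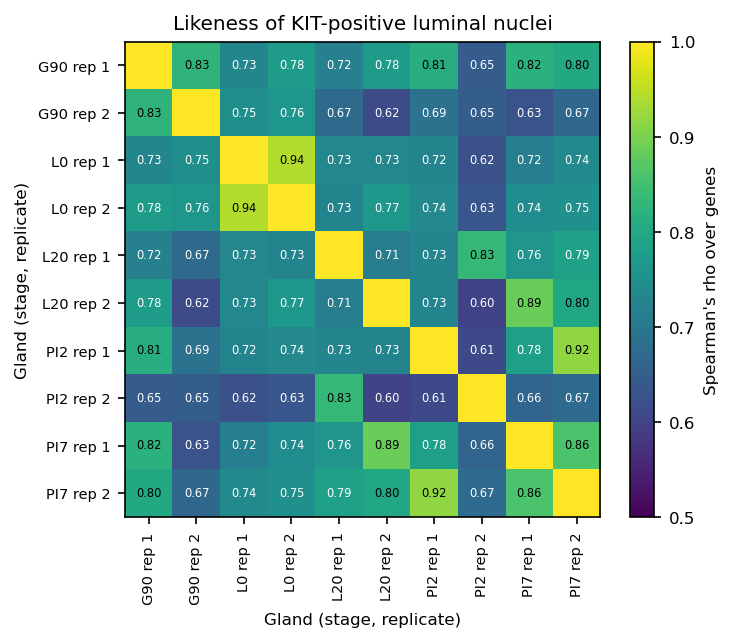
Spearman's rho between glands over the summed profiles of KIT-positive luminal nuclei, with stage and replicate on both axes and each cell giving rho. L0 glands were alike at 0.943, whereas the PI2 glands had 0.611 and PI2 replicate 1 was closer to PI7 replicate 2 at 0.916.

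The values of the rule itself are given as a description. KIT was at 928 and 605 CPM (UMIs scaled to a total of 1000000 per gland) in G90 sows, 1181 and 1822 in L0 sows, 663 and 772 in L20 sows, 1704 and 642 in PI2 sows, and 1320 and 1201 in PI7 sows. ALDH1A3 was held by 39.6% and 8.11% of the selected nuclei in G90 sows, 21.5% and 23.8% in L0 sows, 84.4% and 77.5% in L20 sows, 76.2% and 30.7% in PI2 sows, and 82.3% and 77.3% in PI7 sows. EPCAM was held by 78.6% and 96.1% in G90 sows, 86.8% and 82.8% in L0 sows, 41.7% and 50.9% in L20 sows, 49.6% and 79.3% in PI2 sows, and 54.2% and 58.0% in PI7 sows. G90 and L0 nuclei were thus chosen mainly through KIT and EPCAM, and those of L20, PI7 and PI2 replicate 1 mainly through KIT and ALDH1A3. Over all glands 53.9% held ALDH1A3 and 67.3% held EPCAM. Exactly 3 UMIs of the markers were found in 2376 selected nuclei (22.0%), and 2419 further nuclei fell just outside with 2. Another 8181 nuclei met the positive part and were dropped for an excluded gene, 5153 of them with a UMI of ESR1, 1853 with COL1A1 and 1151 with TP63.

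KIT transcripts were not limited to the selected nuclei, since 52956 nuclei (41.4%) held at least 1 UMI. The gates for other cell types were set by at least 2 UMIs of a lineage gene and none of the other lineages. KIT was found in 15.4% of the 3626 CD163 nuclei (macrophage gate, median 1975 UMIs, 116 CPM), 20.1% of the 5897 COL1A1 nuclei (fibroblast gate, median 2235 UMIs, 176 CPM), 38.9% of the 1629 TP63 nuclei (basal gate, median 2558 UMIs, 418 CPM) and 43.8% of the 2019 PTPRB nuclei (endothelial gate, median 2404 UMIs, 452 CPM). The selected nuclei, all of which hold KIT by rule, stood at 1166 CPM over all glands with a median of 2833 UMIs. Within the CD163 gate, KIT ranged from 13.8 CPM in PI2 replicate 2 to 436 CPM in L0 replicate 1, so the level in nuclei outside the epithelium also differed between glands. ALDH1A3 was held by 26.7% of the COL1A1 nuclei (195 CPM), 14.2% of the TP63 nuclei, 9.96% of the PTPRB nuclei and 8.96% of the CD163 nuclei. In the COL1A1 gate it reached 38.0% in L20 replicate 1 and 32.0% in PI7 replicate 1, where 84.4% and 82.3% of the selected nuclei held it. The share of selected nuclei that passed through 1 free molecule of KIT or ALDH1A3 was not tested.

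KITLG, the ligand, was low in the selected nuclei. It was found in 2.95% of them at 13.7 CPM, near the macrophage gate (2.92%, 16.0 CPM). In G90 replicate 1, however, 13.1% of the selected nuclei held it at 47.9 CPM, against 4.09% and 28.4 CPM in the macrophage gate, and in CPM they were above that gate in 5 of 10 glands. The ligand stood at 181 CPM in the PTPRB gate, 101 CPM in the TP63 gate, 98.8 CPM in the 1257 ESR1-positive epithelial nuclei described below and 37.4 CPM in the COL1A1 gate. These values pool glands of unequal size. By gland KITLG ran from 12.4 to 177 CPM in the TP63 gate and from 16.3 to 214 CPM in the ESR1-positive nuclei, whose order is therefore not read.

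**Figure D2:**
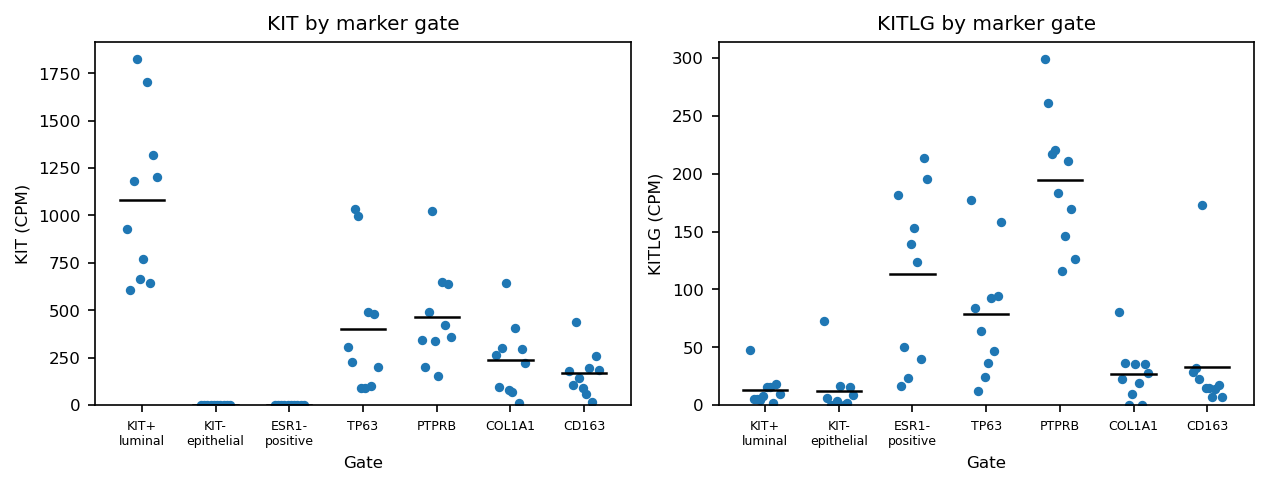
KIT (left) and KITLG (right) in CPM by marker gate, where each point is a gland and the black line is the mean of the glands. KIT is 0 by rule in the KIT-negative epithelial and ESR1-positive gates, and KITLG is lowest in the KIT-negative and KIT-positive gates and high in the PTPRB gate, at 181 CPM over all glands.

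Markers outside the rule were compared with the label of luminal progenitor. Of 10 progenitor markers listed, ELF5 is described here, and the list as a whole is given further below. ELF5, the transcription factor of luminal progenitor and alveolar cells, was held by 81.7% of the selected nuclei against 63.2% of the KIT-negative and 58.1% of the ESR1-positive epithelial nuclei described below, 39.8% in the TP63 gate, 18.5% in the PTPRB gate, 16.1% in the COL1A1 gate and 11.14% in the CD163 gate. These shares pool glands of unequal size, and 1781 of the 3626 CD163 nuclei came from L20 replicate 2, where 4.38% held ELF5. By gland, the share was 33.6% to 93.3% in the selected nuclei and 2.44% to 32.0% in the CD163 gate, and it was higher in the selected nuclei of every gland. In L0 replicate 1 the TP63 gate was near them, at 85.4% and 1172 CPM. When nuclei were thinned to 1000 UMIs, ELF5 was found in 58.5% of the selected nuclei, 47.0% of the KIT-negative nuclei, 38.6% of the ESR1-positive nuclei, 27.0% of the TP63 gate and 6.69% of the CD163 gate. Within glands the thinned share was higher in the KIT-negative than in the selected nuclei in 6 of 10 glands (67.7% against 61.2% in G90 replicate 1), and higher in the ESR1-positive nuclei in both L0 glands, so the pooled order did not hold in those glands. Its level in the selected nuclei was 1121 and 1254 CPM in G90 sows, 1325 and 1254 in L0 sows, 520 and 538 in L20 sows, 1339 and 194 in PI2 sows, and 650 and 1214 in PI7 sows. The nuclei also held milk protein transcripts, and 31.9% had a UMI of CSN2 (beta-casein). Within glands the gap to the CD163 gate varied, with 88.6% against 37.4% in G90 replicate 2, 80.1% against 68.0% and 79.9% against 35.0% in the L0 glands, and 43.6% against 28.0% in PI2 replicate 2. In PI7 replicate 2 no selected nucleus held it. By gland, CSN2 was at 104 and 2492 CPM in G90 sows, 2125 and 2364 in L0 sows, 129 and 26.3 in L20 sows, 5.01 and 463 in PI2 sows, and 1.78 and 0 in PI7 sows. CSN2 was also found outside the epithelium in the same libraries, where the macrophage gate held 876 CPM of CSN2 in G90 replicate 2, 1330 and 345 in the L0 glands and 304 in PI2 replicate 2. The part of RNA from other nuclei in the values of the selected nuclei was not tested. ELF5 and caseins together do not separate progenitor from alveolar cells, and the nuclei are therefore called KIT-positive luminal nuclei.

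Markers of other cell types were mostly lower in them than in the remaining nuclei, which the rule in part fixes. Nuclei with a UMI of COL1A1, PTPRB, CD163, CD3E or TP63 were excluded from the selection and stay among the remaining nuclei. The sums are therefore given as a description. The summed level of 6 mast cell genes, a cell type that also carries KIT, was 1.73 to 17.9 CPM per gland (mean 8.36, against 20.9 in the remaining nuclei). Macrophage genes summed to 13.3 to 109 CPM (mean 42.8 against 184), lymphocyte genes to 19.2 to 126 CPM (mean 50.1 against 216), and fibroblast genes to 8.81 to 238 CPM (mean 104 against 811). These 4 lists were lower in the selected nuclei of every gland. Endothelial genes summed to 145 to 403 CPM (mean 288 against 485), adipocyte genes to 5.06 to 142 CPM (mean 37.6 against 61.3) and myoepithelial genes to 114 to 682 CPM (mean 387 against 590). In PI2 replicate 2 the selected nuclei had the higher sum of endothelial (369 against 355 CPM) and adipocyte genes (142 against 76.6), and in L20 replicate 2 of myoepithelial genes (297 against 240.3). Against ESR1-positive nuclei, 5 of the 7 lists had a higher mean in the selected nuclei, namely endothelial (288 against 219 CPM), macrophage (42.8 against 30.2), lymphocyte (50.1 against 36.5), fibroblast (104 against 87.1) and adipocyte genes (37.6 against 28.8), and their part in that comparison was not tested. Of these 7 lists no gene with an identifier was at 0 in every gland.

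The share of KIT-positive luminal nuclei varied widely between sows of PI2, PI7 and L20 and little between those of L0. It was 6.47% and 8.44% of nuclei at G90, 10.7% and 10.2% in L0 sows, 4.96% and 1.42% in L20 sows, 18.2% and 1.49% in PI2 sows, and 8.99% and 15.3% in PI7 sows. The exact binomial 95% interval, which covers counting error only, was 17.6% to 18.9% in PI2 replicate 1 and 1.25% to 1.76% in PI2 replicate 2. As stage means these were 7.46% ± 1.39 (SD, n = 2) in G90 sows, 10.4% ± 0.337 in L0 sows, 3.19% ± 2.5 in L20 sows, 9.86% ± 11.8 in PI2 sows and 12.2% ± 4.48 in PI7 sows. The 4 lactation glands (6.81% ± 4.42) and the 6 others (9.83% ± 6.07) differed by -3.02 percentage points. This was within the spread over splits of the 10 glands (exact two-sided permutation test over 210 splits, p = 0.429, adjusted p = 0.857 over the 2 shares computed, smallest possible p 0.00476). The splits mix the stages, so that spread holds differences between stages, such as L0 and L20, as well as between sows. The difference moved to -1.22 points without L20 replicate 2, -1.33 without PI2 replicate 1 and -4.68 without PI2 replicate 2. With every nucleus thinned to 1000 UMIs the shares ran from 0.327% in PI2 replicate 2 to 10.8% in PI2 replicate 1, and the difference was -2.08 points (exact permutation test, p = 0.4). Of all nuclei, KIT was held by 17.3% to 19.0% in L20 sows, by 11.05% in PI2 replicate 2 and by 43.2% to 74.1% in the other 7 glands.

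**Figure D3:**
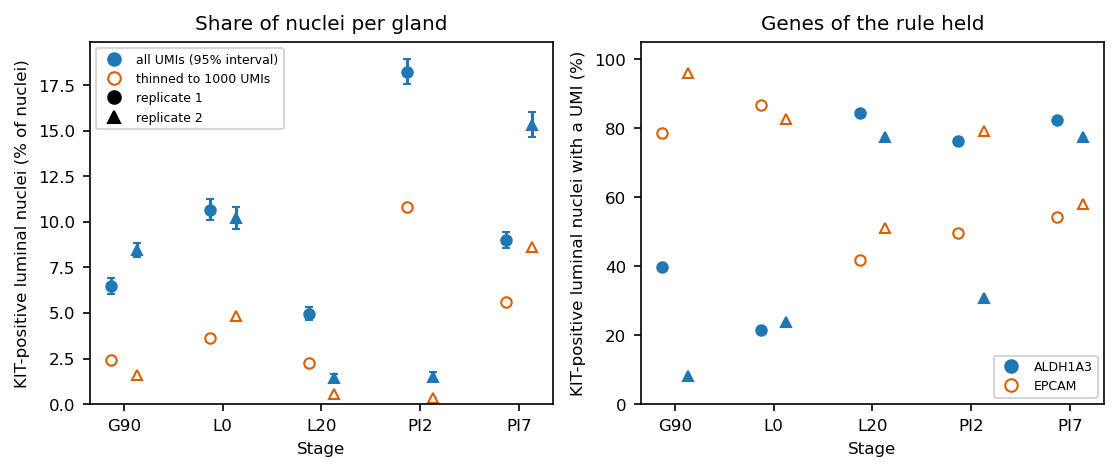
Left, KIT-positive luminal nuclei as a percentage of nuclei by stage, with filled points for all UMIs (bars, exact 95% binomial intervals) and open points for nuclei thinned to 1000 UMIs; right, the percentage of these nuclei that hold ALDH1A3 or EPCAM. Circles are replicate 1 and triangles replicate 2. The PI2 sows lay at 18.2% and 1.49%, and ALDH1A3 ran from 8.11% in G90 replicate 2 to 84.4% in L20 replicate 1.

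The share of KIT-positive among ESR1-negative epithelial nuclei is largely set by the gates and is given as a description. KIT-negative epithelial nuclei were defined by EPCAM, at least 3 UMIs of EPCAM and ALDH1A3, no KIT and none of the excluded genes, and numbered 1322. The KIT-positive gate reaches its 3 UMIs with the help of KIT, so a majority of KIT-positive nuclei follows in part from the rule. KIT-positive nuclei made up 95.1% and 81.7% of both classes at G90, 94.5% and 98.2% in L0 sows, 65.1% and 86.5% in L20 sows, 97.3% and 44.0% in PI2 sows, and 95.2% and 91.1% in PI7 sows. Lactation glands (86.1% ± 14.8, n = 4) and the others (84.1% ± 20.4, n = 6) differed by 1.98 points (exact permutation test, p = 0.890, not read as a result because the gates use the same genes), and the difference turned to -6.03 points without PI2 replicate 2.

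The comparison with KIT-negative epithelial nuclei asks how nuclei with a KIT UMI differ from those in which none was detected. KIT-negative nuclei held a lower median of UMIs over all glands (2438.5 against 2833). The same held in each gland except L20 replicate 2 (4830.5 against 4370.5). After the thinning used above for ELF5, 70.1% of the selected nuclei still held KIT. Whether KIT-negative nuclei lacked KIT only through their depth was not tested. UMIs were summed per sow and class and tested with edgeR's quasi-likelihood test with the sow as a block, and a call needed a Benjamini-Hochberg adjusted p under 0.05 together with a log2 fold change beyond 1 in either direction. Few genes differed, since 3 of 9447 were called (0.0318%), and all 3 were lower in KIT-positive nuclei. S100A6, a small calcium-binding protein, averaged 37.3 CPM in KIT-positive and 102 CPM in KIT-negative nuclei (log2 fold change -1.35 ± 0.22 SE, edgeR adjusted p = 0.00156, lower in 8 of 10 glands). CTSD, the lysosomal protease cathepsin D, averaged 67.8 against 158 CPM (log2 fold change -1.05, lower in 7 of 10 glands). ND1, a mitochondrially encoded subunit of complex I, averaged 162 against 460 CPM (log2 fold change -1.02, lower in 7 of 10 glands). Its means were 183 against 858 CPM in the lactation glands and 147 against 194 CPM in the others. DESeq2 called 0 genes, with 629 at an unadjusted p under 0.05, and edgeR's fit without the sow block also called 0.

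Lists of mammary genes showed small differences from KIT-negative nuclei. CSN1S1 (alpha-S1-casein) was lower in KIT-positive nuclei of 10 of 10 glands and passed the adjusted p, but its log2 fold change of -0.53 did not reach the size needed for a call. LAMA3, a chain of laminin 332, had -0.97 and an edgeR adjusted p of 0.0271 and was lower in 9 of 10 glands. ELF5 had a log2 fold change of 0.28 (941 against 889 CPM, adjusted p = 0.304) and KRT5, a basal keratin, -0.76 (23.4 against 74.1 CPM, adjusted p = 0.378). The catenin CTNND1, which binds cadherins at cell junctions, had 0.30 and was higher in 10 of 10 glands without passing the test. At an unadjusted p under 0.05, 9.8% of all genes passed, with 6.84% of all genes higher and 2.96% of all genes lower in KIT-positive nuclei. Read against this, 7 of 14 basement membrane and integrin genes were lower (list median -0.33, against 0.04 over all genes tested), 5 of 13 secretory genes were lower (median -0.14), and 6 of 18 luminal transcription factors were higher (median 0.11). Endothelial markers were higher in the same comparison (2 of 3 at an unadjusted p under 0.05, median 0.41), and 1 fibroblast marker of 3, 1 myoepithelial marker of 6 and the 1 lymphocyte marker tested were lower. Their part was not tested. The KIT-negative gate asks for EPCAM in every nucleus, whereas 67.3% of the KIT-positive nuclei held it. The part of this in the differences from KIT-negative nuclei was not tested either.

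In the same classes, 12 of 9447 genes (0.127%, and 4.94% at an unadjusted p under 0.05) had a difference that changed with lactation, all with a lower value of KIT-positive nuclei in lactation. They were 10 mitochondrially encoded genes, ANXA1 (annexin A1) and SPP1 (osteopontin, a secreted phosphoprotein found in milk). SPP1 averaged 309 CPM in KIT-positive and 977 CPM in KIT-negative nuclei of the 4 lactation glands, and 571 against 546 CPM in the 6 others. COX1, a subunit of cytochrome c oxidase, averaged 1991 against 7494 CPM in lactation and 1884 against 1832 CPM in the other stages. The KIT-negative nuclei of L0 replicate 2, of which there were 18, held 16490 CPM of COX1. No gene was called when nuclei above 25% mitochondrial UMIs were left out, and DESeq2 called 0 (310 at an unadjusted p under 0.05).

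ESR1-positive epithelial nuclei, the hormone-sensing class, differed more. They were defined by ESR1 and EPCAM with at least 3 UMIs in all, no KIT and none of the other excluded genes, and numbered 1257. Their median of UMIs over all glands was higher than that of KIT-positive nuclei (3682 against 2833). The same held in each gland except L0 replicate 1 (2616 against 2984), with 4221.5 against 2249 in L20 replicate 1. The part of this depth in the calls was not tested. KIT-positive nuclei had 144 genes higher (1.58%) and 388 lower (4.25%), so that 532 of 9123 were called (5.83%), 27.7% passed an unadjusted p of 0.05, and 584 genes (6.4%) differed in the same direction in every gland. DESeq2 called 549, and leaving out 1 sow at a time gave 439 to 625 calls with edgeR. The genes named next are those with the largest change among called genes that differed the same way in 10 of 10 glands. None of the raised genes was called against KIT-negative nuclei, so they are not shown to be particular to KIT-positive nuclei.

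P3H2, a prolyl 3-hydroxylase that modifies collagen, was the most raised (chromosome 13, 127414955 to 127572165). In KIT-positive nuclei it was at 770 and 26.3 CPM in G90 sows, 10.9 and 10.9 in L0 sows, 529 and 1422 in L20 sows, 3238 and 48.0 in PI2 sows, and 1149 and 2317 in PI7 sows. In ESR1-positive nuclei of the same glands it was at 59.7 and 19.1, 0 and 0, 90.8 and 358, 371 and 2.21, and 74.3 and 611 CPM. Each gland had the higher level in KIT-positive nuclei, with wide overlap between glands (log2 fold change 2.51 ± 0.29 SE). P3H2 could pass the filter on low counts through the KIT-positive class alone, so its fold change is given as a description, with no p.

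SCGN, the calcium-binding protein secretagogin (chromosome 7, 20389156 to 20432985), was likewise higher in KIT-positive nuclei of 10 of 10 glands. Its levels in KIT-positive nuclei were 775 and 40.03 CPM in G90 sows, 25.7 and 41.6 in L0 sows, 294 and 382 in L20 sows, 1337 and 24.0 in PI2 sows, and 687 and 937 in PI7 sows. ESR1-positive nuclei ranged from 0 to 316 CPM (log2 fold change 2.13 ± 0.27 SE, a description with no p, for the same reason as P3H2). IL34, a ligand of the macrophage receptor CSF1R (chromosome 6, 13588748 to 13679864), was at 324 and 110 CPM in G90 sows, 120 and 137 in L0 sows, 258 and 641 in L20 sows, 1191 and 116 in PI2 sows, and 504 and 903 in PI7 sows, against 23.8 to 338 CPM in ESR1-positive nuclei (log2 fold change 1.61 ± 0.17 SE, edgeR adjusted p = 5.61e-06). The other raised genes were PAQR5 (a membrane progestin receptor, 1.51), SLC15A1 (a peptide transporter, 1.43), KCNN4 (a calcium-activated potassium channel, 1.42), TIMP3 (an inhibitor of metalloproteinases, 1.42), RUNX2 (a transcription factor, 1.41), MBOAT1 (1.39) and GUCY1B1 (a subunit of soluble guanylate cyclase, 1.39), all given as log2 fold changes. Without the sow as a block, P3H2, SCGN, PAQR5, SLC15A1, KCNN4, TIMP3 and RUNX2 lost their call, and the calls fell to 264, of which 12 were higher and 252 lower.

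The lower genes named next were low in KIT-positive nuclei and could pass the filter on low counts through the ESR1-positive class alone, so that their fold changes are given as a description, with no p. TNFSF11 (RANKL, chromosome 11, 24468011 to 24505421) ranged from 0.353 to 12.8 CPM in KIT-positive and from 11.9 to 744 CPM in ESR1-positive nuclei, a log2 fold change of -5.38. ADRA1A, the alpha-1A adrenergic receptor, had the lowest value at -6.28 (mean 4.0 against 394 CPM). TMEM196 (-6.06), GALNT13 (an enzyme of mucin-type glycosylation, -5.57), CEP112 (a centrosomal protein, -5.30), KNG1 (kininogen, -5.05), MDGA2 (an adhesion molecule, -5.05), PCDH7 (a protocadherin, -5.02), ANO4 (-4.93) and NALF1 (an auxiliary factor of the NALCN channel, -4.85) were lower in 10 of 10 glands.

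Of 9 hormone-sensing genes with an identifier, 5 passed the filter on low counts, and these 5 were lower in KIT-positive nuclei, which hold no ESR1 by rule, than in a class gated on ESR1. TNFSF11 could pass the filter through the ESR1-positive class alone, whereas ERBB4, TBX3, PGR and PRLR passed it in the comparison with KIT-negative nuclei as well. With these choices the count is not read as support for a difference of the list. ERBB4, a receptor of neuregulins, was at 127 and 34.3 CPM in G90 sows, 104 and 146 in L0 sows, 39.6 and 47.0 in L20 sows, 35.4 and 17.5 in PI2 sows, and 46.3 and 27.9 in PI7 sows. In ESR1-positive nuclei it was at 1450 and 101, 92.7 and 202, 534 and 587, 1307 and 599, and 1358 and 753 CPM, so that it was lower in KIT-positive nuclei of 9 glands and slightly higher in those of L0 replicate 1 (log2 fold change -3.50). TBX3, a transcription factor of mammary development, had -3.33, PGR -3.13 and PRLR -1.46, the last at 1021 against 2558 CPM on average.

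Of the luminal progenitor list outside the rule, 2 of 8 tested genes were called higher than in ESR1-positive nuclei, against 1.58% of all genes, and none was called lower. Against KIT-negative nuclei 0 of 8 were called (median 0.02, against 0.04 over all genes tested), and the list sum averaged 1730 against 1701 CPM. At an unadjusted p under 0.05, 2 of the 8 were higher and 1 was lower. The sum was lower in KIT-positive nuclei of G90 replicate 2 (1755 against 1882 CPM), PI2 replicate 1 (2132 against 2284) and PI2 replicate 2 (1181 against 1231). It was higher in those of the remaining glands. Against ESR1-positive nuclei, ELF5 had a log2 fold change of 1.1 ± 0.26 SE and was higher in 9 of 10 glands. In G90 replicate 2 and the L0 glands the ESR1-positive nuclei held 1189, 1189 and 1425 CPM of ELF5. KRT15, a keratin of progenitor cells, had 1.77 and was at 106 and 4.11 CPM in G90 sows, 11.6 and 4.23 in L0 sows, 108 and 72.4 in L20 sows, 225 and 0 in PI2 sows, and 210 and 295 in PI7 sows. The transcription factors ELF3 (1.0) and CREB5 (1.02) were higher, while GATA3 (-1.98), a factor of luminal identity, and XBP1 (-1.06), a factor of the secretory endoplasmic reticulum, were lower, 4 of 18 in all.

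**Figure D4:**
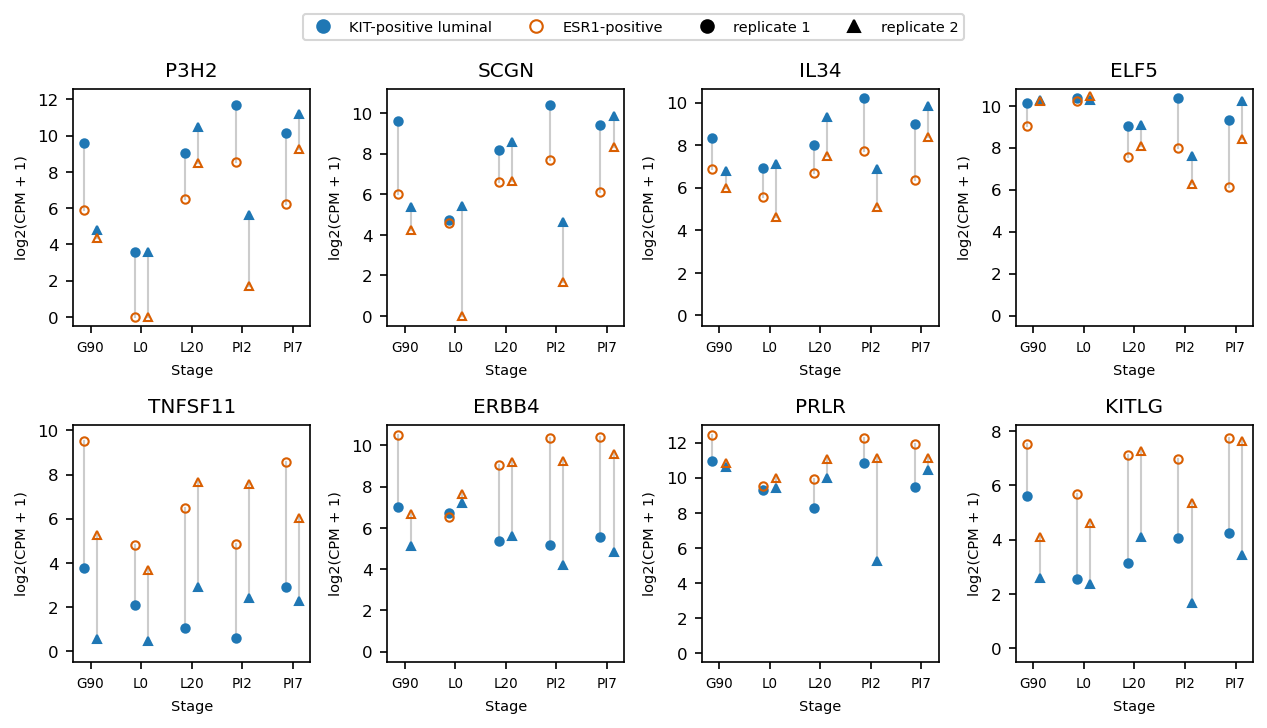
Levels of 8 genes as log2(CPM + 1) by stage in KIT-positive luminal nuclei (filled) and ESR1-positive epithelial nuclei (open), with a grey line joining the classes of a gland, circles for replicate 1 and triangles for replicate 2. P3H2, SCGN and IL34 are higher in KIT-positive nuclei of every gland, TNFSF11, PRLR and KITLG lower in every gland, and ERBB4 lower in 9 glands and slightly higher in L0 replicate 1 (104 against 92.7 CPM).

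Each signalling list had 1 called gene, a count that is not read as different from the 5.83% of all genes. Of 26 genes of KIT signalling the called one was KITLG, lower in 10 of 10 glands. It was at 47.9 and 5.06 CPM in G90 sows, 4.94 and 4.23 in L0 sows, 7.93 and 16.0 in L20 sows, 15.9 and 2.18 in PI2 sows, and 17.8 and 9.84 in PI7 sows in KIT-positive nuclei, and at 16.3 to 214 CPM in ESR1-positive nuclei (log2 fold change -3.21). KITLG passed the filter on low counts here and not against KIT-negative nuclei, so its difference too is a description, with no p. Of 7 ERBB genes, EGFR alone was called (log2 fold change 1.18, 383 against 170 CPM, higher in 10 of 10 glands). In the Notch list, the ligand JAG1 was lower (-1.05, 1 of 11 called), while the receptors NOTCH1 (0.96) and NOTCH2 (0.86) passed the adjusted p below the fold needed. In the retinoic acid list, ALDH1A1, a relative of ALDH1A3, was lower (-2.52, 1 of 9 called) at 20.4 against 106 CPM. Of this list 9 genes were tested here and 8 against KIT-negative nuclei. ALDH1A1 may therefore have passed the filter through the ESR1-positive class alone, and its difference is given as a description.

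The other lists are read against the 1.58% of all genes called higher and 4.25% called lower, which counts of 1 or 2 do not clearly exceed. Among structural genes, the tight junction gene CLDN8 (-1.63), the luminal keratin KRT8 (-1.13) and E-cadherin CDH1 (-1.06) were lower, and the desmosomal DSC2 (1.15) was higher, 4 of 15 in all. The structural list summed to 3414 against 3459 CPM on average. The ESR1-positive gate asks for EPCAM in every nucleus, whereas 67.3% of the KIT-positive nuclei held it, and the part of this in these genes was not tested. ITGAV, the integrin alpha-V chain, was lower at 114 against 455 CPM (log2 fold change -1.89, lower in 10 of 10 glands), as was LAMA3 (-1.03), 2 of 14 in the basement membrane list. Of 11 lysosomal and involution genes only CTSD was called (-1.40). The chemokine CXCL2 (1.18) was 1 of 12 innate defence genes called, and no gene of the secretory list (0 of 12, median 0.40) or the cell cycle list (0 of 6) was called. FASN (fatty acid synthase, 0.91) and PLIN2 (a lipid droplet coat protein, 0.84) were higher in 10 and 9 of 10 glands without reaching the fold needed. Beside these, KRT14 of the myoepithelial list (-1.10) and KDR of the endothelial list (1.28, 63.7 against 20.4 CPM) were called, 1 of 6 and 1 of 3. Leaving out the deepest 5% of nuclei gave 309 calls in place of 532.

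Within KIT-positive luminal nuclei, those with ALDH1A3 and those without were compared for the genes outside the rule. Nuclei without ALDH1A3 all hold EPCAM by the rule, whereas those with ALDH1A3 need not. In L20 replicate 1, 84.4% of the selected nuclei held ALDH1A3 and 26.1% held both. The part of EPCAM in the differences below was not tested. No gene of 9883 was called (0.0%) by edgeR, with 718 (7.27%) at an unadjusted p under 0.05, and DESeq2 called 0 with 581. The nearest to a call were KRT5 (log2 fold change 0.89, edgeR adjusted p = 0.0714) and KRT15 (0.81, adjusted p = 0.0762), followed by smaller differences in KRT8 (0.48), CLDN4 (0.43) and the immunoglobulin receptor PIGR (0.50). At an unadjusted p under 0.05, 3 of 6 myoepithelial genes were higher and 1 lower (median 0.21). In the same way 4 of 13 secretory genes were lower (median -0.15), and the part of both lists was not tested.

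Across stages, no gene was called by edgeR within KIT-positive luminal nuclei when all glands were fitted together. In 1 edgeR fit over the 5 stages, 0 of 15070 genes (0.0%) were called for L0 against G90, 0 (0.0%) for L20 against L0, 0 (0.0%) for PI2 against L20, 0 (0.0%) for PI7 against PI2 and 0 (0.0%) for lactation against the other stages. DESeq2 called 580, 500, 4, 7 and 272. With only the samples of both stages, edgeR called 192 genes for L0 against G90 and 23 for L20 against L0. In the same setting it called 0 for PI2 against L20 and 0 for PI7 against PI2. At an unadjusted p under 0.05, edgeR gave 2033 (13.5%), 1842 (12.2%), 847 (5.62%), 410 (2.72%) and 1827 genes (12.1%). All values by stage below are therefore levels and differences that did not pass the test in the fit over the 5 stages.

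Between G90 and L0 the lowest adjusted p was 0.0626, reached among others by FOXP2, a transcription factor, which was at 74.3 and 22.2 CPM in G90 sows and at 753 and 590 in L0 sows (log2 difference 4.08 ± 0.54 SE). PDE7A, a cyclic AMP phosphodiesterase, was at 125 and 133 CPM in G90 sows and 973 and 691 in L0 sows (2.89). In both genes the sows of the stages did not overlap, which the choice of named genes required and which was so for 55.0% of all genes tested. ECHDC1 (3.39), GUCY1B1 (2.75) and INSIG2, a regulator of sterol synthesis (2.75), also had higher values at L0, and CHODL (-3.36), LRP4 (-4.15), SAPCD2 (-6.87), AFF2 (-3.86) and AKAP11 (-2.93) lower ones. Of 18 cell cycle genes, 13 were lower at L0 at an unadjusted p under 0.05 (7.07% of all genes), with a list median of -2.04 against -0.15 over all genes tested. The cell cycle sum of the remaining nuclei fell too, from 692 and 1365 CPM at G90 to 180 and 236 at L0. In the selected nuclei it went from 584 and 1701 CPM to 136 and 217. TOP2A, a topoisomerase of dividing cells, was at 60.7 and 228 CPM in G90 sows, 9.64 and 3.53 in L0 sows, 33.8 and 8.47 in L20 sows, 7.78 and 0 in PI2 sows, and 8.5 and 1.88 in PI7 sows. G90 replicate 2 was the highest of the 10 glands, and the same held for CENPF (374 CPM), a kinetochore protein, and TPX2 (123 CPM), a spindle factor. Of 13 innate defence genes 6 were higher at L0 (6.42% of all genes), among them complement C3 (4.11) and the lipopolysaccharide-binding protein LBP (4.05). The innate defence sum of the remaining nuclei rose too, from 1260 and 1450 CPM at G90 to 4085 and 4416 at L0. In the selected nuclei it went from 1507 and 1528 CPM to 4132 and 4580. Of 8 myoepithelial genes 3 were lower at L0 (median -0.72), and their part was not tested.

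Milk protein transcripts of KIT-positive luminal nuclei had lower values at L20 than at L0, as did those of other nuclei. The summed secretory list was at 16600 and 12290 CPM in the remaining nuclei of the L0 sows and 3389 and 839 in those of the L20 sows, and CSN2 in the CD163 gate was at 1330 and 345 CPM and at 66.5 and 0.577 CPM. PAEP, a lipocalin of the beta-lactoglobulin family of whey proteins, was at 5174 and 6360 CPM in L0 sows and 355 and 130 in L20 sows (log2 difference -4.77 ± 0.64 SE, edgeR adjusted p = 0.0728), after 4936 and 5171 CPM in G90 sows. CSN1S1 was at 1127 and 5006 CPM in G90 sows, 6930 and 4551 in L0 sows, 241 and 200 in L20 sows, 377 and 146 in PI2 sows, and 92.5 and 120 in PI7 sows (L20 against L0, -4.95). The G90 sows were apart in other secretory genes too, with XDH (xanthine oxidoreductase, which coats milk fat globules) at 296 and 4419 CPM. Of 13 secretory genes, 5 were lower at L20 at an unadjusted p under 0.05 (5.32% of all genes). MGP (-5.22) and POC1A (-3.52) were lower with them, while GPRC5A (3.08), GRAMD1B (2.93), GCLC (glutathione synthesis, 3.11), RBPMS (3.23) and GRID1 (3.26) had higher values at L20. The stages did not overlap for 46.9% of all genes. Fibroblast markers went the same way as the higher genes (4 of 5 at an unadjusted p under 0.05, against 6.91% of all genes, sum 33.4 and 8.81 CPM in L0 sows and 120 and 238 at L20), as did 3 of 6 endothelial markers, and their part in the L20 values was not tested.

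Involution gave fewer differences with all sows in the fit, and the PI2 sows were unlike. The number of differences at an unadjusted p under 0.05 moved with the sow left out, which leaves 1 sow in a stage. PAEP was at 2262 and 1526 CPM in PI2 sows and 293 and 290 in PI7 sows. PDK4, a kinase that restrains pyruvate oxidation, was at 215 and 634 CPM in L20 sows, 92.1 and 78.6 in PI2 sows, and 739 and 671 in PI7 sows. The chloride channel CFTR was at 31.2 and 107 CPM in L20 sows, 2.59 and 4.37 in PI2 sows, and 85.8 and 25.3 in PI7 sows. These 3 genes led both comparisons, PI2 against L20 (PAEP 2.82, CFTR -4.54, PDK4 -2.33, edgeR adjusted p = 0.827) and PI7 against PI2 (PAEP -2.77, CFTR 4.14, PDK4 2.97, adjusted p = 0.999), and both comparisons share the PI2 sows. Sows of the stages did not overlap for 27.4% and 28.9% of all genes. Further genes with the lowest p were UVSSA, TOR1B and SCN3A with higher and FHIT, SLC4A10 and CACUL1 with lower values at PI2, and ATP6V0D2, ACP5 and KYNU with higher and DOK5, GLP1R, LRIG1 and CSN2 with lower values at PI7. Of 5 macrophage markers, 4 were higher at PI7 at an unadjusted p under 0.05 (median 1.85, against 2.72% of all genes in either direction), and ACP5 and ATP6V0D2 are themselves genes of macrophages and osteoclasts. The macrophage sum in KIT-positive luminal nuclei was 37.8 and 19.7 CPM in PI2 sows and 109 and 79.9 CPM in PI7 sows, and its part in these values was not tested.

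Lactation as a whole was compared with the other stages. CADPS2, a factor of vesicle exocytosis, was at 2603 and 3191 CPM in L0 sows and 2024 and 1915 in L20 sows, above the 670 to 966 CPM of the 6 other glands (log2 difference 1.66 ± 0.25 SE, edgeR adjusted p = 0.0848). FOXP2 (2.40), PDE7A (1.67), IKZF2 (1.90) and the bicarbonate transporter SLC4A7 (1.93) had the same adjusted p. MYC was at 16.9 to 37.5 CPM in lactation and 45.9 to 108 CPM elsewhere (-1.42, adjusted p = 0.134), and DOCK10 (-1.71), AHDC1 (-1.45), SMARCD1 (-1.28) and RAI1 (-1.31) were the other genes with lower values. The lactation glands did not overlap with the others for 2.53% of all genes. Of 13 secretory genes 7 were higher in lactation at an unadjusted p under 0.05 (6.73% of all genes, list median 1.52 against -0.07 over all genes tested). Their summed level was 18040 and 14390 CPM in L0 sows but 3206 and 1609 in L20 sows, below both G90 sows (3519 and 16630) and PI2 replicate 2 (3972). At an unadjusted p under 0.05, 5 of 8 myoepithelial genes were lower (5.39% of all genes), while the sum of that list was highest of all glands in L20 replicate 1 (682 CPM) and lowest in G90 replicate 2 (114 CPM), against the direction of these counts. Adipocyte markers moved with the higher genes (2 of 4 at an unadjusted p under 0.05, median 1.29) and lymphocyte markers with the lower ones (2 of 5, median -0.51), and their part was not tested. In KIT signalling, the adaptor GAB1 was at 521 and 442 CPM in L0 sows and 99.5 to 332 CPM in the other 8 glands, and CBLB, a ubiquitin ligase that limits receptor kinases, was at 461 and 517 CPM in L0 sows and 89.5 to 217 CPM in the other 8. Of 29 genes of that list, 6 were higher and 2 lower in lactation at an unadjusted p under 0.05 (list median 0.03). Without L20 replicate 1 and PI2 replicate 2 together, 7 genes were called for lactation, without L20 replicate 2 alone 11, and without PI2 replicate 2 alone 27.

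**Figure D5:**
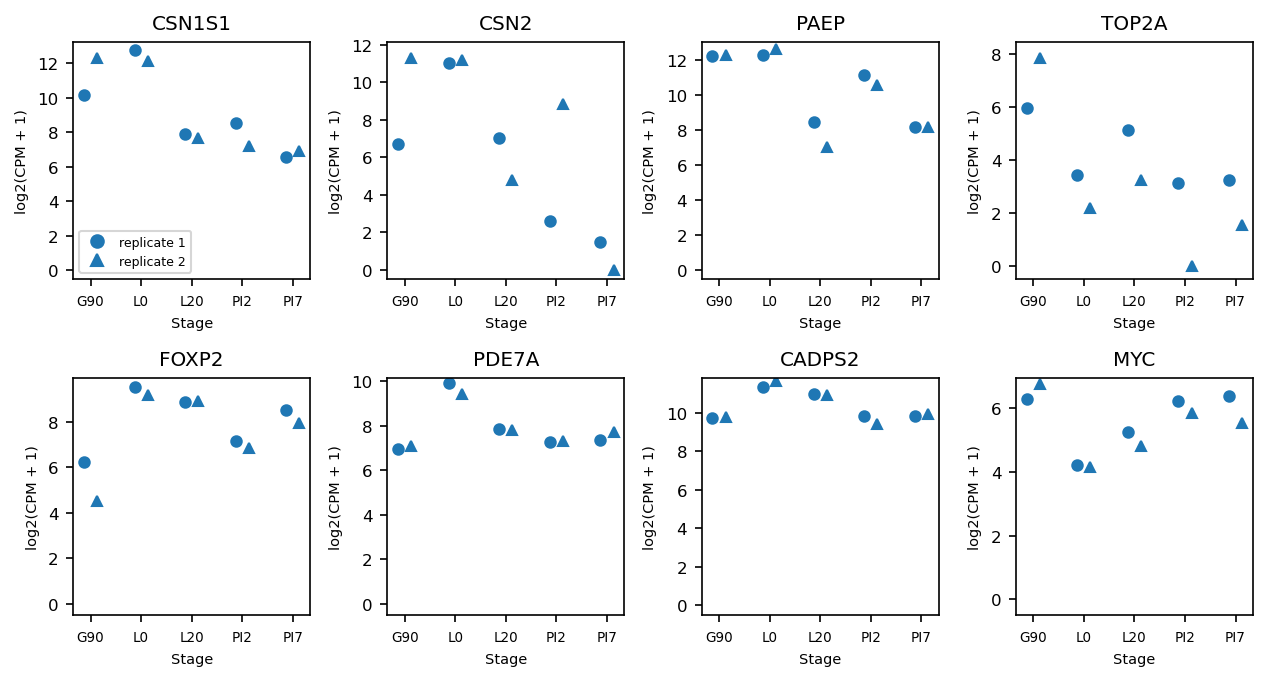
Levels of 8 genes in KIT-positive luminal nuclei as log2(CPM + 1) by stage, with circles for replicate 1 and triangles for replicate 2. CSN1S1 and PAEP are high at G90 and L0 (PAEP 4936 to 6360 CPM), TOP2A is highest in G90 replicate 2 at 228 CPM, FOXP2 and PDE7A are highest at L0, and CADPS2 separates the 4 lactation glands from the other 6.

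Glands of 1 stage could differ more than glands of different stages, and several genes shared 1 order, which was noticed after their values were seen and has no test. P3H2 (10.9 to 48.0 CPM), SCGN (24.0 to 41.6), IL34 (110 to 137), KRT15 (0 to 11.6) and RUNX2 (33.4 to 83.0) had their 4 lowest levels in G90 replicate 2, both L0 glands and PI2 replicate 2. Their lowest levels among the other 6 glands were 529, 294, 258, 72.4 and 139 CPM. ALDH1A3, a gene of the rule, was lowest in the same 4 glands, at 29.9 to 181 CPM against 218 to 1071, and the summed level of the secretory list was highest in them, at 3972 to 18040 CPM against 1317 to 3519. The order was not limited to KIT-positive nuclei. P3H2 in ESR1-positive nuclei was also lowest in these 4 glands. The secretory sum of the remaining nuclei was highest in them, at 3556 to 16600 CPM against 721 to 3389. In ESR1-positive nuclei, however, that sum was lower in PI2 replicate 2 (1839 CPM) than in G90 replicate 1 (2088 CPM). In PI2 replicate 2 and L20 replicate 1, LBP was at 736 and 849 CPM against 12.97 to 218 in the other 8 glands, and C3 was at 2712 and 1408 CPM against 61.6 to 1083. The innate defence sum of the remaining nuclei was also highest in these glands, at 8464 and 7876 CPM against 1128 to 4416.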

How the data were processed

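The authors isolated nuclei, aligned reads to Sscrofa11.1 with CeleScope and deposited UMI counts per gene and barcode, whole counts without normalization, for each of 10 glands. Of 28711 gene identifiers, 15457 have a symbol in the files, 639 took one from the reference table and 12615 have none. Tissue sections and milk cells were not used here. Depth is given above as its range over glands, and intervals cover counting error only. Nuclei of at least 300 genes were kept (307 barcodes were below), and 11 selected nuclei held over 25% mitochondrial UMIs. Doublets were not removed, because Scrublet in scanpy 1.11.5 marked 0 to 2 nuclei in 9 glands and 410 in PI7 replicate 2, and its calls and the deepest 5% of nuclei were left out as alternatives.

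UMIs were summed per sow and class (at least 10 nuclei) and tested with edgeR 4.0.16 in R 4.3.3 (quasi-likelihood, TMM, filterByExpr), with the sow as a block where both classes came from the same sow. CPM are UMIs of a class in a gland scaled to a total of 1000000. A gene was called at an adjusted p (Benjamini-Hochberg) under 0.05 with a log2 fold change beyond 1 either way. DESeq2 1.42.0 was an alternative. The tests were checked on simulated data. At 1 common spread estimated from all 10 glands, the test of L0 against G90 missed most changes, and that of lactation found most. At a lower spread that was set, the test of L0 against G90 found most. The spread of the L0 and G90 sows alone was not simulated. Samples come from separate sows by the study's methods. Gene positions come from RefSeq for Sscrofa11.1 (326 of 331 genes matched).

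Named genes are examples from gene lists set for the tissue. For classes they are also up to 10 called genes per direction with a symbol, a mean of at least 20 CPM in 1 class and the largest log2 fold change among those with 1 direction in every sow, and for stages up to 5 per direction, which, with none called, are those of lowest p whose sows do not overlap. Mitochondrial and ribosomal protein genes are not named by this rule. Some genes that the rule picked are not reported here. Where few genes were called, all are named, mitochondrial ones included. The selected nuclei, lists and tests were chosen with earlier results of these data known. Genes outside the rule are marked as noticed after their values were seen.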

Additional observations from a re-analysis of the deposited data

Results flagged for a closer look

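The share of KIT-positive nuclei among ESR1-negative epithelial nuclei was 44.0% in PI2 replicate 2, the lowest of the 6 glands outside lactation and apart from the other 5 (81.7% to 97.3%) by more than Dixon's limit for 6 samples. Chance flags about 1 in 20 groups in this way, and since the gates use the same genes as this share, it is given as a value only.

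The difference between KIT-positive and KIT-negative epithelial nuclei changed between lactation and the other stages, by edgeR's test of the interaction, for 12 genes. On the log2 scale the change was -1.62 for ANXA1 and -1.58 for SPP1. For the mitochondrially encoded genes it was -1.72 for COX1, -1.64 for COX2, -1.73 for COX3, -1.60 for ATP6, -1.72 for CYTB, -1.54 for ND1, -1.39 for ND2, -1.65 for ND4, -1.83 for ND4L and -1.27 for ND5. SPP1 was lower in KIT-positive nuclei of 4 of 4 lactation glands and of 3 of 6 others, and ANXA1 of 3 of 4 and of 2 of 6. KIT-negative nuclei of lactation glands held a mean of 345 CPM of ANXA1 against 138 in KIT-positive nuclei, and outside lactation 59.3 against 79.5. None of the 12 was called when nuclei above 25% mitochondrial UMIs were left out.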

How the results depend on the processing

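The numbers of called genes depended on the setting. Against ESR1-positive nuclei lower genes outnumbered higher ones in every setting run, with 439 to 625 calls when 1 sow was left out. Genes could pass the filter on low counts through the class where they are high, so this direction is not read as a result. With no filter, 655 genes were lower and 500 higher. Against KIT-negative nuclei (3 calls), DESeq2 gave 0, no filter on low counts 34, at most 25% mitochondrial UMIs 1, at least 2 KIT UMIs 8, the deepest 5% of nuclei left out 1 and no sow block 0, with 2 to 8 when 1 sow was left out (8 and 6 without G90 replicates 1 and 2, 7 without PI7 replicate 2). Against ESR1-positive nuclei (532), no filter gave 1155, the deepest nuclei left out 309 and no sow block 264. For ALDH1A3 (0), no filter gave 9, at most 25% mitochondrial UMIs 2, at least 2 KIT UMIs 6, nuclei of 2000 to 8000 UMIs 1 and the deepest nuclei left out 4, with 0 to 8 when 1 sow was left out (8 and 3 without PI7 replicates 2 and 1, and 1 each without L0 replicate 2, L20 replicate 1 and PI2 replicate 1). For the difference by lactation (12), DESeq2 gave 0, no filter 21, at most 25% mitochondrial UMIs 0 and at least 25 nuclei per sow and class 2, with 2 to 29 when 1 sow was left out (29 and 2 without L20 replicates 1 and 2, 2 without L0 replicate 2, 5 without PI2 replicate 1). For L0 against G90 (0), DESeq2 gave 580, no filter 741, at least 2 KIT UMIs 22, only the samples of both stages 192, and 1 sow left out 0 to 103 (31 and 40 without L20 replicates 1 and 2, 91 and 103 without PI2 replicates 1 and 2). For L20 against L0 (0), these were 500 with DESeq2, 773 with no filter, 23 with only both stages and 0 to 56 (47 and 41 without G90 replicates 1 and 2, 37 and 56 without PI2 replicates 1 and 2). For PI2 against L20 (0) and PI7 against PI2 (0), DESeq2 gave 4 and 7, and no filter 56 and 78. For lactation (0), DESeq2 gave 272, no filter 504, L20 replicate 1 and PI2 replicate 2 left out together 7, and 1 sow left out 0 to 27 (1 and 3 without G90 replicates 1 and 2, 11 without L20 replicate 2, 27 without PI2 replicate 2). The share among epithelial nuclei ran from -6.03 to 8.96 points over left-out sows, reversing to -0.831 and -2.04 points without L0 replicate 1 and L0 replicate 2. The share of all nuclei ran from -4.68 to -1.22 points over the same settings. The causes were not tested. Replicate numbers did not pair the sows of different stages, with correlations of their deviations from -0.384 to 0.259 and 3 of 10 pairs over 0.1, and a block on them gave 0 calls in all 5 stage comparisons. Each stage held 2 sows.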
